A study of Mus musculus with 24 samples.

Results

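The genes of G1-S control and DNA replication were followed through a neural differentiation protocol in mouse embryonic stem cells with and without the phosphatases Cdc14a and Cdc14b. The set held 42 genes chosen by symbol, all 42 of which were among the 17545 genes listed, and 41 passed the filter on low values. The exception, Cdkn2c, an inhibitor of Cdk4 and Cdk6, had 0 to 5.98 normalized counts and was not tested. Cells pass from G1 into S phase when D-type cyclins with Cdk4 or Cdk6, and then E-type cyclins with Cdk2, phosphorylate the pocket proteins and release E2f factors, which drive transcription of replication genes. Origins are licensed by loading of the Mcm helicase, and the helicase is then activated to start forks. Mouse embryonic stem cells are known for a short G1 phase with high cyclin E and Cdk2 activity, and G1 lengthens as they differentiate.

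The 24 libraries came from 8 lines derived from blastocysts, 2 clones (numbered 1 and 3) each of Cdc14ab KO, Cdc14b KO, Cdc14a KO and wild type, sampled at days 0, 2 and 7. Where a genotype has a pair of values, clone 1 comes before clone 3. Day 0 cells were cultured on feeders with LIF and passed over gelatin before extraction to remove the feeders. Day 2 and day 7 cells were in N2B27 medium with EGF and FGF2, and at day 6 the growth factors were withdrawn and the cells replated on laminin. Cdc14b-null means the Cdc14ab KO and Cdc14b KO lines, and Cdc14b-intact means the Cdc14a KO and wild-type lines. For the wild-type clone 3 library of day 7 the description names undifferentiated cells, whereas its title and treatment name day 7, which was used. The labels give no more than a clone number to tell lines of 1 genotype apart, and each p-value rests on the spread between such clones.

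Libraries held 6422883 to 10856721 reads, from the 3′ ends of transcripts. The 10 pluripotency markers had a summed level of 31787 to 49441 normalized counts in Cdc14b-null and 27630.5 to 36111 in Cdc14b-intact libraries at day 0, and none was at 0. Cdc14b reads were present in every library, with 233 to 325 normalized counts in Cdc14b-null and 104 to 168 in Cdc14b-intact libraries at day 0, and 101 to 157 in Cdc14b-null and 164 to 197 in Cdc14b-intact libraries at day 7. The groups did not overlap on either day, in opposite directions. No source used here places the deletion relative to the 3′ reads, and these levels therefore check no label. Cdc14a had 4.22 to 28.0 normalized counts in every genotype. Gm42418 took over 7% of reads in 3 libraries, Cdc14ab KO day 0 clone 1, Cdc14b KO day 0 clone 3 and Cdc14a KO day 2 clone 1. The first of these stood apart in many members, and counts are given without these 3 libraries where they differ.

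Matches of 8 bases to the E2F motif, searched as TTTCCCGC, TTTCGCGC, TTTGCCGC or TTTGGCGC on both strands, were found in the promoters of 14 of 34 members with a promoter entry (41.2%). The window ran from 250 bases before to 50 bases after the start in RefSeq's GRCm38.p6, and 508 of 11148 genes tested with an entry (4.56%) held a match. Among the members lower at day 7 than at day 0, 6 of 14 with an entry held one, and among the tested members not called, 8 of 17. A match is a description of letters and shows neither binding nor a cause. The stretches below are from 5 members that fell by day 7 and from Cdk2 and Cdc6, which were not called, to show what the match looks like in both kinds. The motif or its reverse complement is in capitals.
Orc1: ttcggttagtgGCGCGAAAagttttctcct
Mcm3: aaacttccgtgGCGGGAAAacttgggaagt
Mcm5: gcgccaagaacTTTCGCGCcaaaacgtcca
Mcm7: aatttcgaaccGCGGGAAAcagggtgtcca
E2f3: ttgaaaagccgGCGGGAAAtctgagtttcg
Cdk2: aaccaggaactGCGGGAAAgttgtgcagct
Cdc6: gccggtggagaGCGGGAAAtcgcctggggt
They lie at chr4:108579416-108579445, plus strand for Orc1, chr1:20820275-20820304, minus strand for Mcm3, chr8:75109345-75109374, plus strand for Mcm5, chr5:138172030-138172059, minus strand for Mcm7, chr13:29986056-29986085, minus strand for E2f3, chr10:128705173-128705202, minus strand for Cdk2 and chr11:98908002-98908031, plus strand for Cdc6. In Mcm5 the TTTCGCGC match overlaps a second, TTTGGCGC on the opposite strand.

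By day 7 most of the licensing genes and part of the fork and nucleotide genes were lower than at day 0, while Ccnd3, Rb1 and Tk1 were higher. Ccnd2 was higher on average but not in every line. Over the 4 genotypes, 16 of 41 members fell (39.0%) and 4 rose (9.76%) at an adjusted p under 0.05, against 17.4% lower and 20.9% higher among all 16158 genes tested (38.2% called in either direction). The median log2 fold change was -0.35 over members and 0.03 over all genes. Fold changes are differences of log2(normalized count + 1), given with their SE, and the adjusted p is from limma with Benjamini-Hochberg adjustment over all genes. Of the 20 called, 18 were called whichever single library was left out, and without the 3 Gm42418-rich libraries 14 were. Summed pluripotency markers moved with the days, at 14720.3 to 25855 normalized counts in Cdc14b-null and 9178 to 16316 in Cdc14b-intact libraries at day 7, below the day 0 sums. The 7 of 8 trophectoderm markers measured summed to 6754 to 45707 in Cdc14b-null and 6968 to 12200 in Cdc14b-intact libraries at day 7, all above the day 0 sums of 1428 to 3777 and 3197 to 4559.9. The 7 of 8 endoderm markers summed to 383 to 2286 in Cdc14b-null and 755 to 972 in Cdc14b-intact libraries at day 7, above 131 to 246 and 125 to 155 at day 0. The 14 neuron markers summed to 1479 to 3167 in Cdc14b-null libraries at day 7, below 3581 to 6106 at day 0. In Cdc14b-intact libraries they summed to 3869.8 to 12589.9, above 2826 to 3254. The 10 of 11 neural progenitor markers measured summed to 853 to 2652 in the former, below 2749 to 4146, and 3443 to 6791 in the latter, above 1915 to 3085. The part of all these markers in the members' changes was not tested, and in bulk samples fewer cells of a type and less RNA per cell cannot be told apart.

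**Figure D1:**
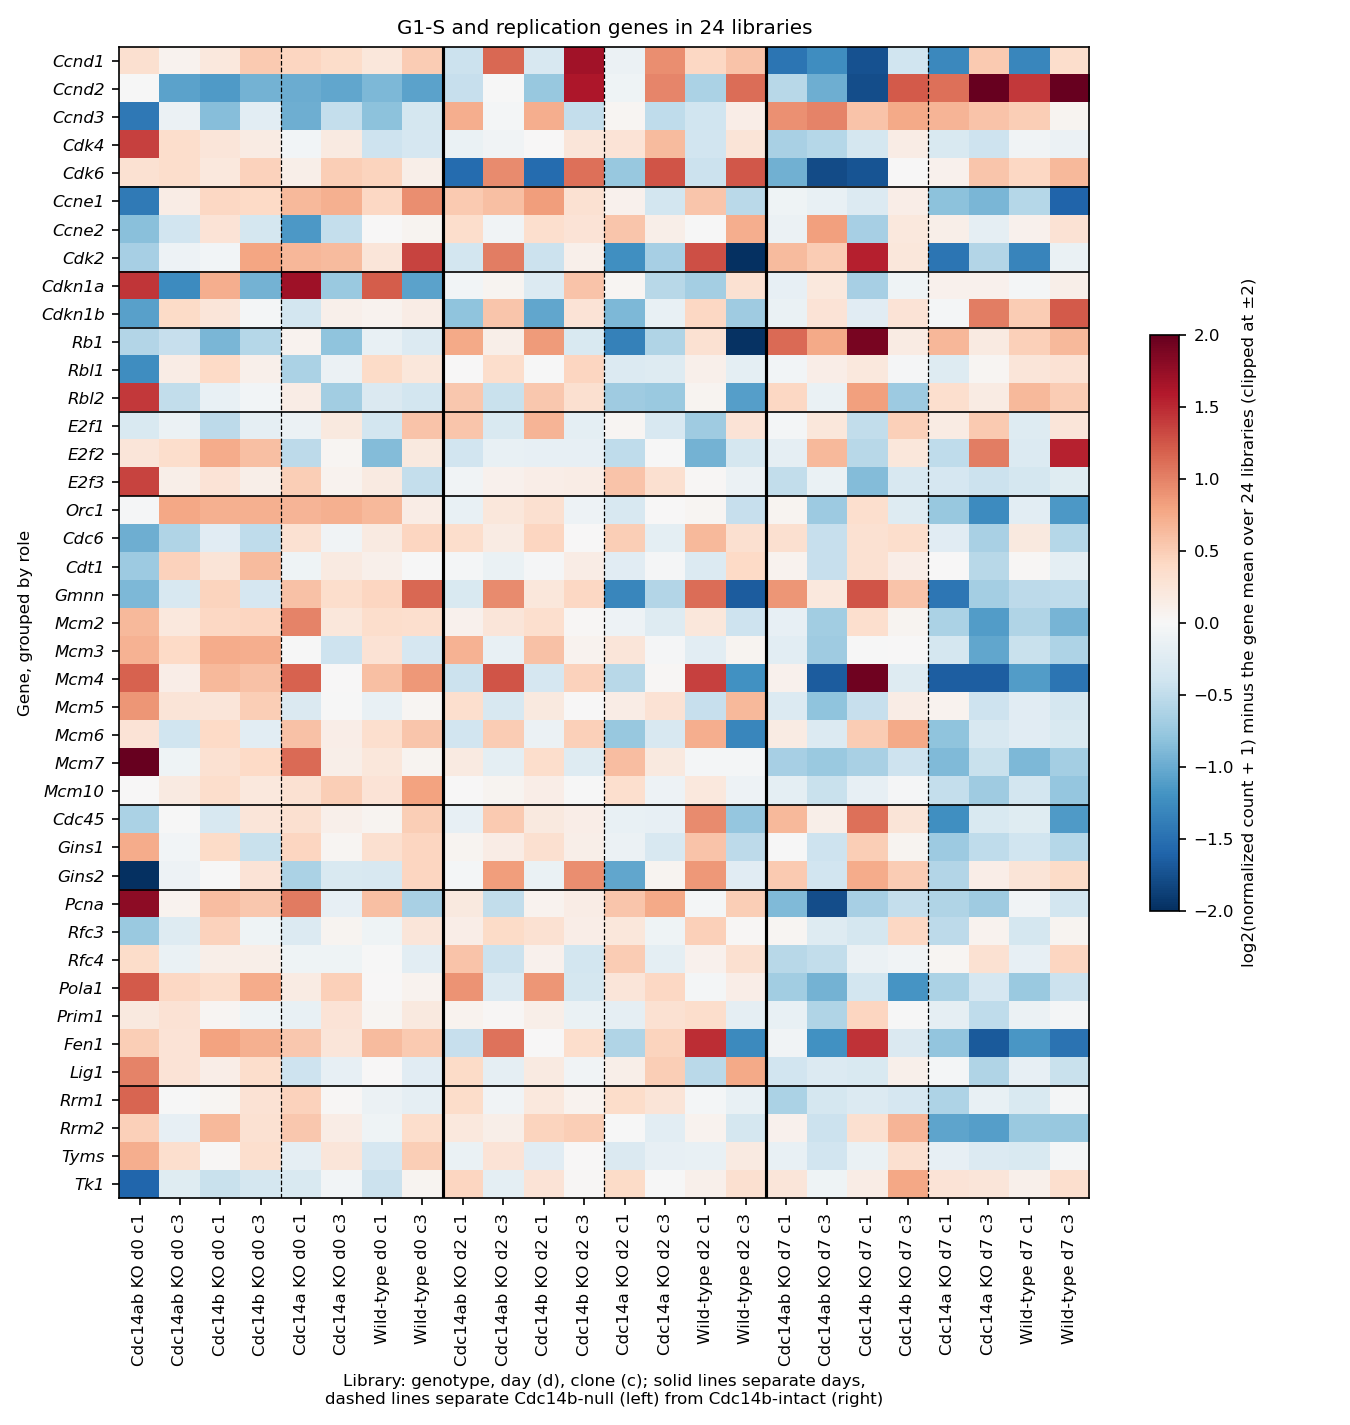
Level of 41 genes (rows, by role) in 24 libraries (columns) as log2(normalized count + 1) minus the gene's mean, red above and blue below it. In the Cdc14b-intact columns most of the licensing rows are bluer at day 7 than at day 0. In the Cdc14b-null columns fewer are, and several stay red in Cdc14b KO clone 1 at day 7. Cdc14ab KO day 0 clone 1 (first column) departs from the other day 0 libraries in many rows.

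**Figure D2:**
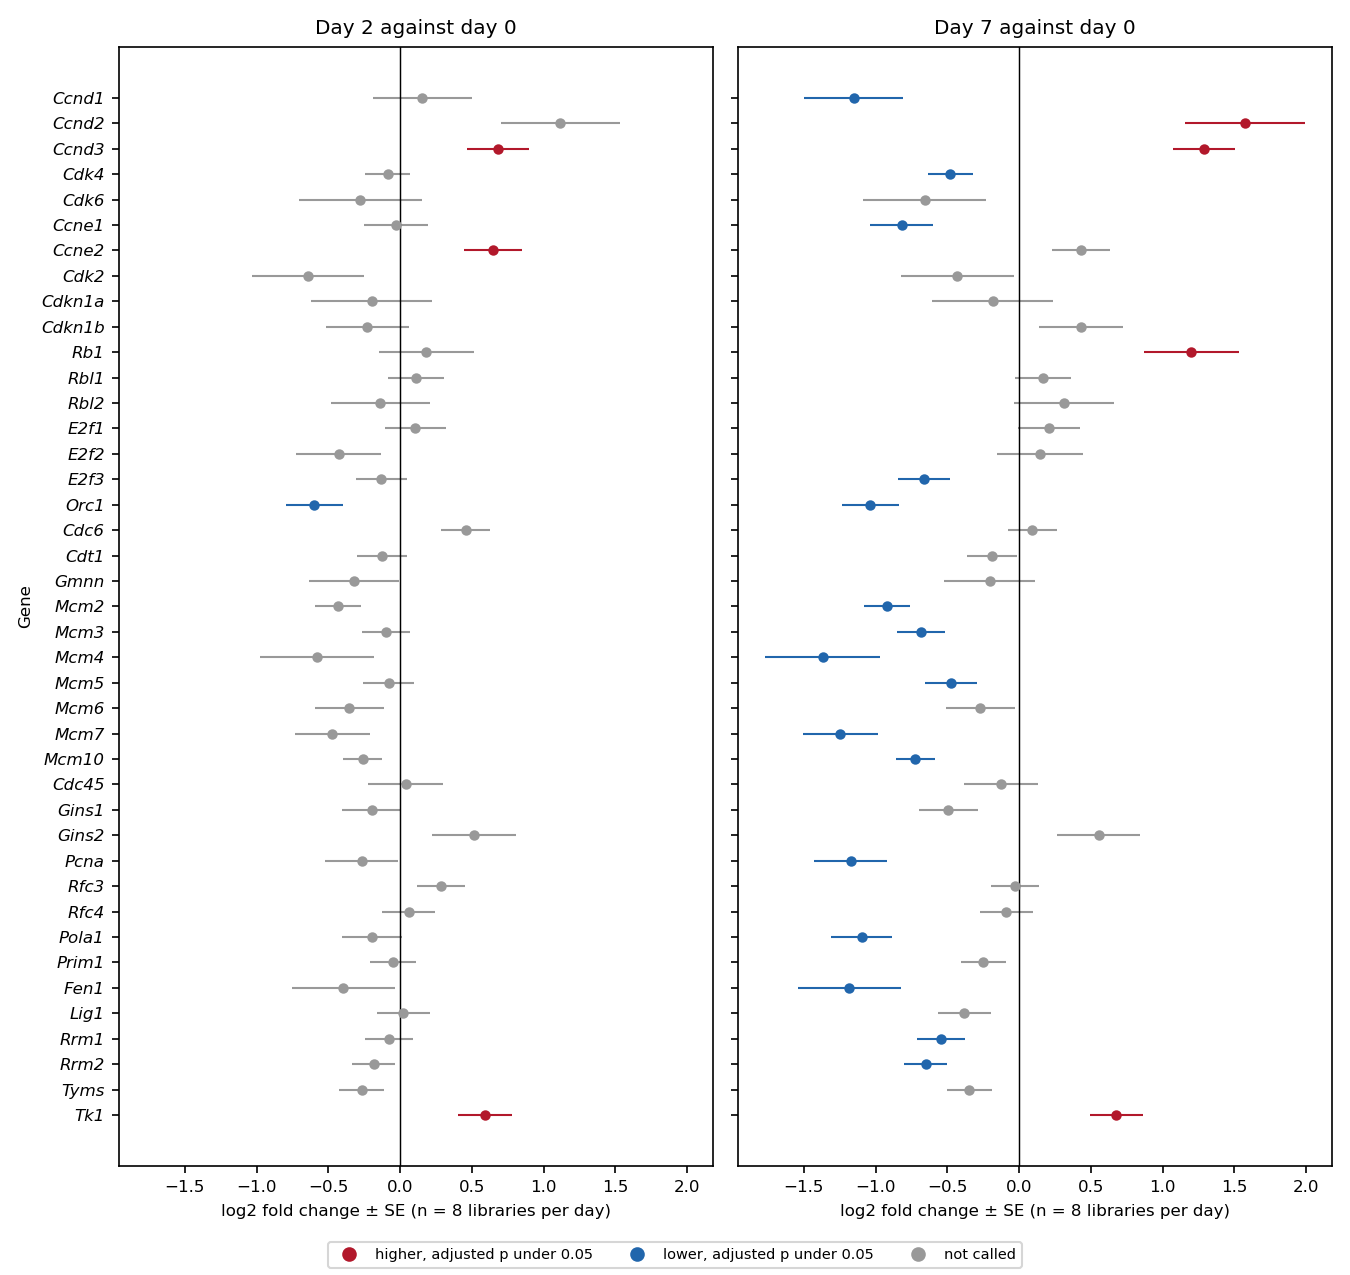
Log2 fold change ± SE (x axis) of each gene (y axis) for day 2 and day 7 against day 0, over 8 libraries a day, with genes called higher in red and lower in blue. At day 2, 4 genes are coloured, and at day 7, 20 are.

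The D-type cyclins, the regulatory partners of Cdk4 and Cdk6, moved in different directions. Ccnd1 had a median of 1338 (1112 to 1522) at day 0, 1490.3 (785 to 3366) at day 2 and 439 (315 to 1514) at day 7, in normalized counts with the range of 8 libraries. Its day 7 level was low in 6 lines and high in Cdc14a KO clone 3 and wild-type clone 3 (1514 and 1339), where the ranges overlapped those of day 0. Against day 0 it fell at day 7 (log2 -1.15 ± 0.35, adjusted p = 0.014 by limma), a call lost without the Gm42418-rich libraries. Ccnd2 had 1133 (1045 to 2279) at day 0, 2217 (1364 to 7020.1) at day 2 and 5149 (674 to 16761) at day 7, with the day 7 libraries spread on both sides of every day 0 value. Averaged over the 4 genotypes, Ccnd2 rose by log2 1.57 ± 0.42 (adjusted p = 0.0067, limma) against day 0. By line the log2 change was -0.54 and 0.10 in Cdc14ab KO and -0.63 and 2.17 in Cdc14b KO. It was 2.09 and 3.15 in Cdc14a KO and 2.31 and 3.94 in wild type. Ccnd3 had 5687 (3297 to 8142) at day 0, 8864 (6264 to 14736) at day 2 and 13690.0 (9234 to 17712) at day 7, and each day 7 library was above each day 0 library. The rise was log2 1.29 ± 0.22 (adjusted p = 0.00018, limma). Only Ccnd3 and Rb1 had no overlap upward, against 5.42% of all genes.

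Cdk4, the kinase partner of the D cyclins, had 1875 (1246 to 4313) at day 0, 1813 (1274 to 2573) at day 2 and 1327 (1063 to 1837) at day 7. The highest day 0 value was Cdc14ab KO clone 1, and the ranges of days 0 and 7 overlapped. It fell at day 7 against day 0 (log2 -0.48 ± 0.16, adjusted p = 0.021, limma), a call lost without Cdc14ab KO day 0 clone 1, without Cdc14b KO day 7 clone 1 and without the Gm42418-rich libraries. Cdk6, the other D-cyclin kinase, had 439.6 (377 to 492) at day 0, 467 (119 to 834) at day 2 and 362 (101 to 545) at day 7 and was not called. Ccne1, which activates Cdk2, had 1203 (338 to 1720.1) at day 0, 1209 (617 to 1609) at day 2 and 676 (297 to 983) at day 7. Its lowest day 0 library was again Cdc14ab KO clone 1, and it fell, with a log2 fold change of -0.82 ± 0.22 (adjusted p = 0.0071, limma) against day 0. Ccne2, the second E-type cyclin, had 136 (79.0 to 214) at day 0, 219 (168 to 292) at day 2 and 190.3 (111 to 313) at day 7 and did not pass the test at day 7. Cdk2 had 113 (51.9 to 212) at day 0, 62.1 (19.9 to 203) at day 2 and 86.1 (29.3 to 245) at day 7 and did not pass it either. By line the log2 change of Cdk2 was 1.29 and 0.60 in Cdc14ab KO and 1.61 and -0.56 in Cdc14b KO. In Cdc14a KO it was -2.12 and -1.22, and in wild type -1.56 and -1.49.

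Among inhibitors and pocket proteins, Rb1 changed. Rb1, the retinoblastoma protein that holds E2f factors in check, had 25.4 (19.01 to 38.5) at day 0, 34.7 (8.53 to 66.8) at day 2 and 58.3 (41.1 to 139.8) at day 7, and no day 7 library overlapped a day 0 library. It rose by log2 1.20 ± 0.33 (adjusted p = 0.008, limma). Its relatives Rbl1 and Rbl2 were not called, with medians of 113 (89.1 to 131) and 12.4 (5.25 to 17.2) at day 7 against 116 (44.3 to 140.2) and 7.89 (5.39 to 26.6) at day 0. Cdkn1a, an inhibitor of cyclin-Cdk complexes, had 575 (212 to 1649) at day 0, 509 (318 to 759) at day 2 and 517 (323 to 591) at day 7 and Cdkn1b, its relative, had 101 (44.3 to 125) at day 0, 72.0 (45.8 to 140.1) at day 2 and 115 (81.0 to 224) at day 7, and neither was called. Cdkn1a split the lines at day 0, where its level was 1369, 847, 1649 and 1181 in clone 1 and 212, 263, 303 and 241 in clone 3 of Cdc14ab KO, Cdc14b KO, Cdc14a KO and wild type. At days 2 and 7 these lines no longer separated by clone number. E2f3, an activating E2f factor, had 269 (174 to 619) at day 0, 261 (224 to 360.5) at day 2 and 190.3 (133 to 222) at day 7 and fell, with a log2 fold change of -0.66 ± 0.18 against day 0 (adjusted p = 0.0074, limma). E2f1 and E2f2, also activators, were not called, with medians of 1174 (725 to 1468) and 45.0 (29.4 to 129) at day 7 against 924 (716 to 1523) and 51.0 (23.5 to 73.6) at day 0.

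**Figure D3:**
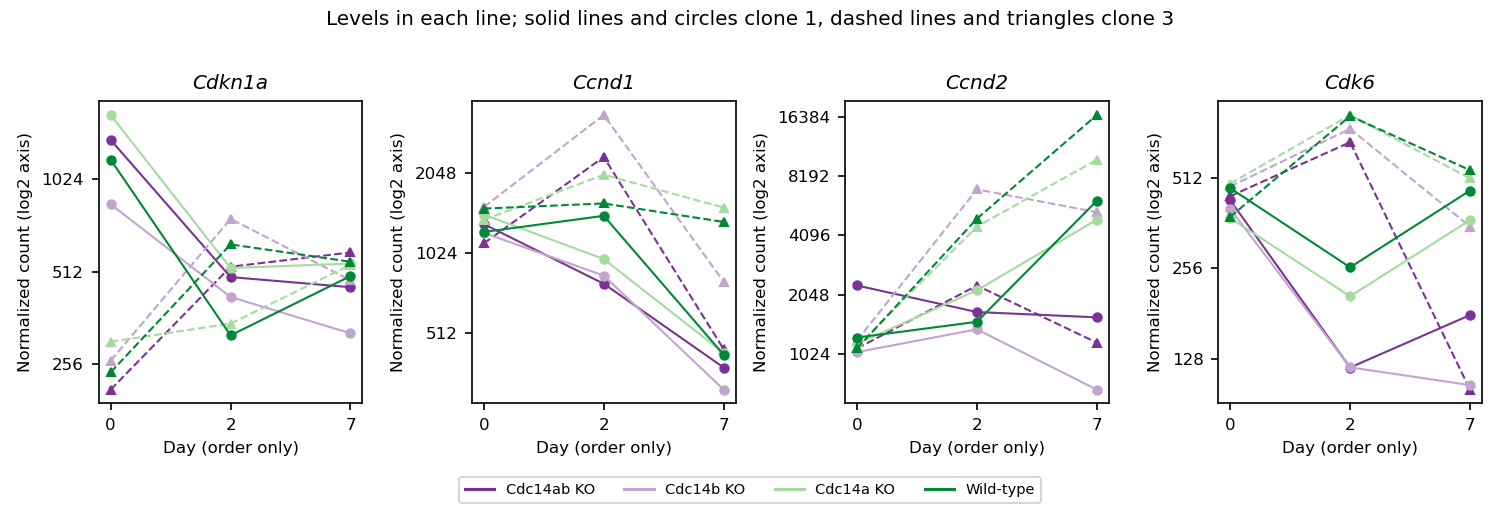
Normalized count (log2 axis) of Cdkn1a, Ccnd1, Ccnd2 and Cdk6 at days 0, 2 and 7 in the 8 lines, with solid lines and circles for clone 1, dashed lines and triangles for clone 3. Cdkn1a separates the clones at day 0 (847 to 1649 in clone 1, 212 to 303 in clone 3), and Ccnd2 reaches 16761 in wild-type clone 3 at day 7.

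Of 11 licensing genes, 7 were lower, none higher and 4 not called at day 7, against 17.4% lower and 20.9% higher among all genes. Of these licensing genes, Cdc6 was the one with a positive difference. Orc1, a subunit of the origin recognition complex, had 311 (189 to 328) at day 0, 186 (139 to 240.2) at day 2 and 138 (79.7 to 243) at day 7. Its lowest day 0 libraries were Cdc14ab KO clone 1 and wild-type clone 3, and it fell, with a log2 fold change of -1.04 ± 0.20 (adjusted p = 0.00054, limma). Mcm2, of the replicative helicase, had 1124 (994 to 1716) at day 0, 897 (647 to 1084) at day 2 and 563 (396 to 1085) at day 7, with the highest day 7 library, Cdc14b KO clone 1, inside the day 0 range. It fell, with a log2 fold change of -0.92 ± 0.16 (adjusted p = 0.00023, limma). Mcm7, another helicase subunit, had 2091 (1639.8 to 9536) at day 0, 1831 (1452 to 2686) at day 2 and 1092 (931 to 1301) at day 7 and every day 7 library was below every day 0 library. Its fall was log2 -1.25 ± 0.26 (adjusted p = 0.0011, limma). Mcm10, which helps to activate the helicase, had 709.8 (582 to 1018) at day 0, 595 (542 to 734) at day 2 and 438 (339.8 to 572) at day 7, also without overlap, and fell, with a log2 fold change of -0.72 ± 0.14 (adjusted p = 0.00049, limma). With Pola1 these were the 3 members whose libraries did not overlap downward, against 3.17% of all genes.

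The helicase subunit genes Mcm3, Mcm4 and Mcm5 fell, with a log2 fold change of -0.69, -1.37 and -0.47 against day 0 (adjusted p = 0.0036, 0.012 and 0.044, limma). Mcm3 had 3663 (2171 to 4808) at day 0, 3019 (2501 to 4688) at day 2 and 2188 (1398 to 2905) at day 7, and Mcm5 had 2978 (2214 to 4989) at day 0, 3042 (1969.9 to 4244) at day 2 and 2170.5 (1553 to 3009.7) at day 7, with overlap between days 0 and 7 for both. Mcm4 had 448 (292 to 656) at day 0, 261 (124 to 747) at day 2 and 118 (90.6 to 1119) at day 7, and its high day 7 value was Cdc14b KO clone 1. The calls of Mcm4 and Mcm5 were lost without the Gm42418-rich libraries. That of Mcm5 was also lost by edgeR, DESeq2 and limma on 22 libraries and held in 4 of 16 fits that left out a library. Mcm6 had 1427 (874 to 1736) at day 0, 994 (469 to 1912) at day 2 and 973 (660.4 to 1951) at day 7 and was not called. The loading factors Cdc6 and Cdt1, and geminin (Gmnn), which inhibits Cdt1, were not called, with day 7 medians of 949.8 (604 to 1215), 2263 (1528 to 2766) and 362 (142 to 924) against 859.8 (481 to 1281), 2479 (1349 to 3456) and 508 (208 to 865) at day 0. The helicase activators were not called either. Cdc45 had 98.4 (59.5 to 132) at day 0, 93.3 (54.0 to 181) at day 2 and 89.9 (39.1 to 201) at day 7, Gins1 had 95.1 (54.4 to 125) at day 0, 78.8 (51.2 to 111) at day 2 and 55.6 (44.5 to 104) at day 7 and Gins2 had 679.8 (171 to 1049) at day 0, 786 (379 to 1485) at day 2 and 974 (520.2 to 1305) at day 7, with the Gins2 low of day 0 in Cdc14ab KO clone 1. By line the log2 change of Cdc45 was 1.29 and 0.12 in Cdc14ab KO and 1.41 and 0.02 in Cdc14b KO. In Cdc14a KO it was -1.55 and -0.39, and in wild type -0.29 and -1.64.

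At the fork, Pola1, the catalytic subunit of DNA polymerase alpha, had 512 (396 to 918) at day 0, 447 (307 to 730.5) at day 2 and 247 (173 to 310.0) at day 7, with every day 7 library below every day 0 library. It fell, with a log2 fold change of -1.10 ± 0.21 (adjusted p = 0.00056, limma). Pcna, the sliding clamp, had 523 (225 to 1216) at day 0, 398 (249.6 to 593) at day 2 and 227 (102 to 337) at day 7, with overlap from wild-type clone 3 and Cdc14a KO clone 3 at day 0 (225 and 313). It fell, with a log2 fold change of -1.17 ± 0.25 (adjusted p = 0.0015, limma). Fen1, which trims Okazaki fragment flaps, had 165 (135 to 199.6) at day 0, 130.4 (46.4 to 319) at day 2 and 57.6 (35.0 to 313) at day 7, with Cdc14b KO clone 1 as the high day 7 library, and fell, with a log2 fold change of -1.18 ± 0.36 (adjusted p = 0.015, limma), a call lost without the Gm42418-rich libraries. The clamp loader subunits Rfc3 and Rfc4, the primase Prim1 and the ligase Lig1 were not called. Their day 7 medians were 481 (356 to 687), 126 (91.4 to 181), 149.8 (107 to 222) and 7203 (5787 to 9424), against 485 (308 to 707), 131 (116 to 175), 179 (149 to 202) and 9248 (6619 to 17514) at day 0.

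Nucleotide supply genes went both ways. The ribonucleotide reductase subunits Rrm1 and Rrm2 fell, with a log2 fold change of -0.55 ± 0.17 and -0.65 ± 0.15 (adjusted p = 0.015 and 0.0022, limma), Rrm1 not without the Gm42418-rich libraries. Rrm1 had 471 (408 to 1037) at day 0, 509.6 (416 to 599) at day 2 and 369 (297 to 449) at day 7, and Rrm2 had 815 (575 to 1017) at day 0, 688 (505 to 909.6) at day 2 and 433 (301 to 1039.7) at day 7, where Cdc14b KO clone 3 was the highest day 7 library. By line the log2 change of Rrm2 was -0.39 and -0.26 in Cdc14ab KO and -0.33 and 0.38 in Cdc14b KO. In Cdc14a KO it was -1.59 and -1.25, and in wild type -0.66 and -1.12. Tk1, a thymidine kinase of the salvage pathway, had 282 (118 to 368) at day 0, 404 (311 to 478) at day 2 and 421 (336 to 604) at day 7 and rose by log2 0.68 ± 0.19 (adjusted p = 0.0082, limma). Its lowest day 0 library was Cdc14ab KO clone 1. Tyms, which makes thymidylate, had 486 (317 to 663) at day 0, 360.2 (328 to 480.4) at day 2 and 358 (305 to 498) at day 7 and was not called. Of 69 other pathway genes tested, 28 fell and 4 rose, with a median of -0.46. Among all genes 17.4% fell and 20.9% rose, with a median of 0.03. Cdkn1c, a Cdk inhibitor, rose by log2 3.11 ± 0.31 (adjusted p = 8.3e-07, limma). Nasp, a histone chaperone, fell (log2 -0.69 ± 0.12, adjusted p = 0.00022, limma).

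At day 2, 4 members were called against day 0, where 14.9% of all genes were (8.5% higher and 6.36% lower). Ccnd3, Ccne2 and Tk1 rose by log2 0.68 ± 0.22, 0.64 ± 0.20 and 0.59 ± 0.19 (adjusted p = 0.042, 0.038 and 0.041, limma). Orc1 fell, with a log2 fold change of -0.60 ± 0.20 (adjusted p = 0.049, limma). The libraries of the 2 days overlapped for every member, whereas 2.15% of all genes were higher and 1.27% lower without overlap. Ccnd2, not called by limma (log2 1.12 ± 0.42, adjusted p = 0.080), was called by edgeR and DESeq2 on 22 libraries. None of the 4 was called in every fit that left out 1 library, in which 0 to 8 members were called, and none was called without the Gm42418-rich libraries. From day 2 to day 7, 10 members fell and Rb1 rose, against 21.4% of all genes called (12.1% higher and 9.3% lower). Those lower were Ccnd1, Ccne1, E2f3, Mcm2, Mcm3, Mcm7, Mcm10, Pcna, Pola1 and Rrm2. Ccnd1, Pcna and Pola1, at log2 -1.31 ± 0.35, -0.90 ± 0.25 and -0.90 ± 0.21, were called under every setting. E2f3 and Mcm7 had no overlap between the 2 days, against 2.03% of all genes lower and 1.89% higher without overlap.

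Lines without Cdc14b were then compared with lines that have it. At day 7, Rrm2 was higher and Ccnd2 lower in Cdc14b-null lines, which is 2 of 41 members (4.88%), against 3.75% of all genes (0.805% higher and 2.95% lower). That share rests on 606 genes called, and leaving out wild-type clone 3 gave 5, Cdc14a KO clone 3 gave 46 and Cdc14b KO clone 1 gave 71. On GRCm38 Rrm2 lies at chr12:24708241-24714146 (plus strand) and Ccnd2 at chr6:127125162-127152193 (minus strand), both protein-coding genes. Rrm2, a ribonucleotide reductase subunit, had 686 and 479 in Cdc14ab KO and 808 and 1039.7 in Cdc14b KO, against 311 and 301 in Cdc14a KO and 386 and 382 in wild type. Each Cdc14b-null library was above each Cdc14b-intact library, and the log2 fold change was 1.08 ± 0.21 (adjusted p = 0.0098, limma). Ccnd2 had 1570.0 and 1168 in Cdc14ab KO and 674 and 5378 in Cdc14b KO, against 4921 and 9932 in Cdc14a KO and 6147 and 16761 in wild type. Only Cdc14b KO clone 3 overlapped the other group, and the log2 fold change was -2.39 ± 0.59 (adjusted p = 0.032, limma). The Rrm2 call was lost without Cdc14a KO day 7 clone 3 or wild-type day 7 clone 3 (adjusted p up to 0.074). The Ccnd2 call held in 3 of 8 fits that left out a library, not without Cdc14a KO clone 3, wild-type clone 3, Cdc14b KO clone 1 or either Cdc14ab KO clone of day 7 (adjusted p up to 0.20), and was lost when only the groups compared were fitted.

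**Figure D4:**
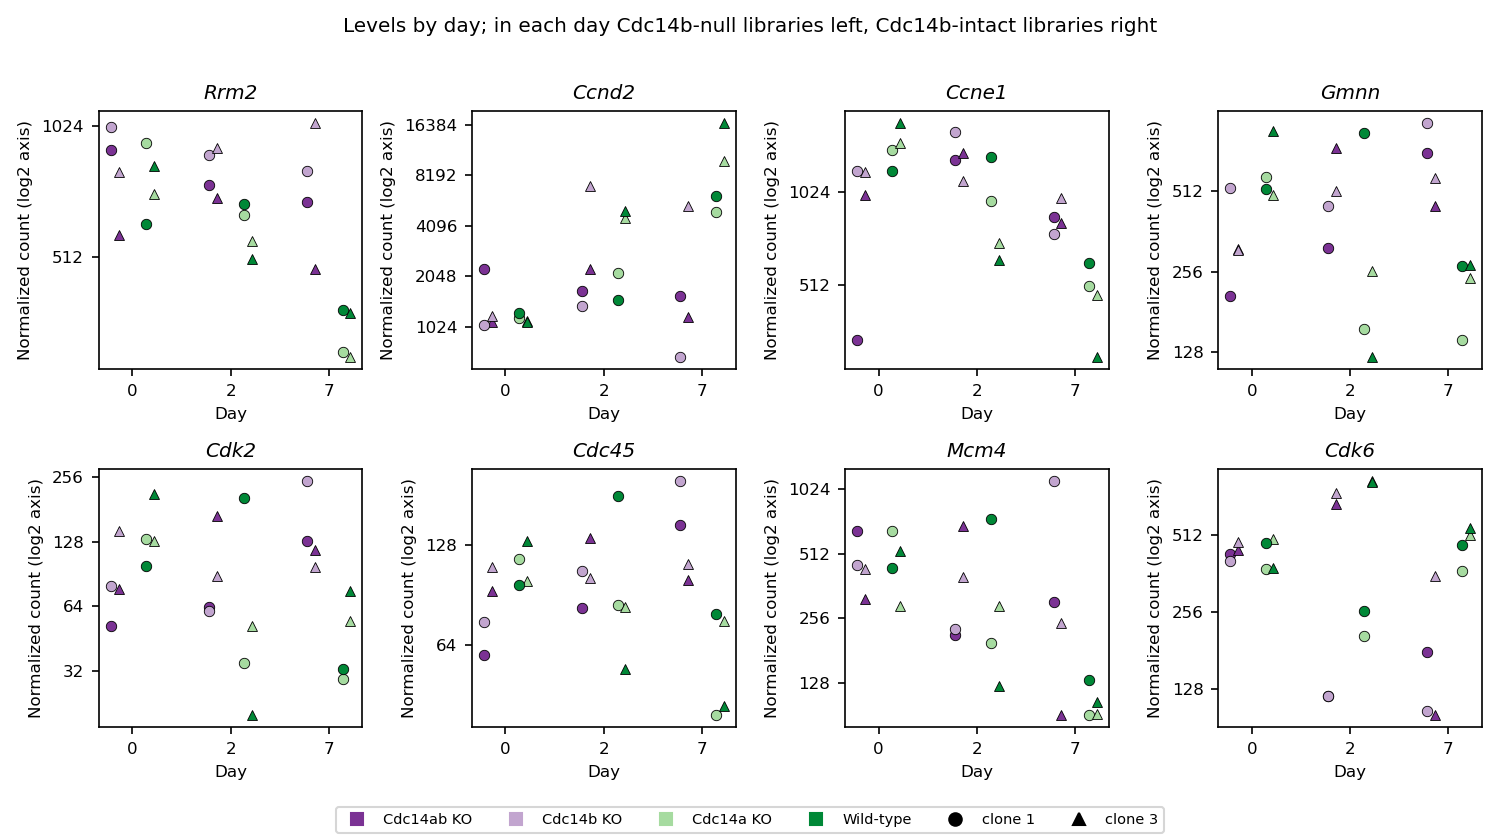
Normalized count (log2 axis) of 8 genes by day, with Cdc14b-null libraries left (purple shades) and Cdc14b-intact libraries right (green shades), circles for clone 1 and triangles for clone 3. At day 7 Rrm2, Ccne1, Gmnn, Cdk2 and Cdc45 lie higher in all 4 Cdc14b-null libraries, and Cdk6 lower.

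The 5 members Ccne1, Cdk2, Gmnn, Cdc45 and Rrm2 had every Cdc14b-null library above every Cdc14b-intact library at day 7 (12.2%, against 7.72% of all genes), and Cdk6 had every one below (2.44%, against 7.87%). Apart from Rrm2, none of these passed the test. Ccne1 had 849.8 and 814 in Cdc14ab KO and 748 and 983 in Cdc14b KO, against 507 and 475 in Cdc14a KO and 605 and 297 in wild type (log2 0.89 ± 0.31, adjusted p = 0.12, limma). Cdk2 had 129 and 118 in Cdc14ab KO and 245 and 97.1 in Cdc14b KO, against 29.3 and 54.5 in Cdc14a KO and 32.6 and 75.1 in wild type (log2 1.61 ± 0.55, adjusted p = 0.11, limma). Gmnn had 714 and 451 in Cdc14ab KO and 924 and 574 in Cdc14b KO, against 142 and 242 in Cdc14a KO and 269.8 and 272 in wild type (log2 1.51 ± 0.45, adjusted p = 0.065, limma). In all 3 each Cdc14b-null library was above each Cdc14b-intact one, and Cdc14b KO clone 1 was the highest for Cdk2 and Gmnn. Cdc45, which travels with the helicase, had 147 and 101 in Cdc14ab KO and 201 and 112 in Cdc14b KO, against 39.1 and 75.7 in Cdc14a KO and 79.1 and 41.8 in wild type (log2 1.26 ± 0.37, adjusted p = 0.061, limma). Cdk6 had 179 and 101 in Cdc14ab KO and 104 and 353 in Cdc14b KO, against 371 and 512 in Cdc14a KO and 466 and 545 in wild type (log2 -1.54 ± 0.60, adjusted p = 0.16, limma). Mcm4 had 307 and 90.6 in Cdc14ab KO and 1119 and 243 in Cdc14b KO, against 91.2 and 92.0 in Cdc14a KO and 133 and 104 in wild type  and its 4 Cdc14b-null libraries spanned those of the other group. DESeq2 on 22 libraries called Cdc45, Cdk2, Gmnn and Mcm4 higher in Cdc14b-null lines. That fit called 1287 of 16108 genes (481 higher and 806 lower), more than limma did. With the clone number as a block, 920 of 16158 genes were called (236 higher and 684 lower), and Mcm2 was also called higher. Its log2 fold change was 0.70 ± 0.23 without the block (adjusted p = 0.088 without the block and 0.035 with it, limma). Mcm2 had 770.2 and 529.6 in Cdc14ab KO and 1085 and 899.8 in Cdc14b KO, against 557 and 396 in Cdc14a KO and 569.7 and 454 in wild type. Licensing genes had a positive difference in 10 of 11, with a median of 0.44, against a median of 0.11 over all members and -0.01 over all genes tested.

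Cell state markers moved with the same contrast at day 7. The 14 neuron markers summed to 1479 to 3167 normalized counts in Cdc14b-null and 3869.8 to 12589.9 in Cdc14b-intact libraries, with no overlap. The 10 of 11 neural progenitor markers measured summed to 853 to 2652 in Cdc14b-null and 3443 to 6791 in Cdc14b-intact libraries. The 10 feeder fibroblast markers summed to 1856 to 3057 in Cdc14b-null and 3965 to 5218 in Cdc14b-intact libraries. At day 0, after feeder removal, they summed to 1811 to 3434 and 1485 to 2944. The name of the list therefore does not identify the cells that express these genes at day 7. The pluripotency, trophectoderm and endoderm sums at day 7, given above, overlapped between the groups. Cdc14ab KO clone 3 held the highest trophectoderm and endoderm sums of day 7 (45707 and 2286). The other 7 libraries had 6754 to 12200 and 383 to 972. Cdc14ab KO clone 3 also had the lowest median over members (-0.39, on the log2 scale relative to each gene's mean). The Cdc14a KO clones were close, at -0.35 and -0.34. Over the 25 members for licensing, helicase activation, fork and nucleotides, Cdc14a KO had -0.60 and -0.51 and wild type -0.31 and -0.44. Cdc14b KO had 0.30 and 0.06 and Cdc14ab KO clone 1 had -0.08, against -0.46 in Cdc14ab KO clone 3. Without it Rrm2 was still called and Ccnd2 was not. Of the markers in these lists that were measured, none was at 0 in a group. The 4 Y-linked genes summed to 28.5 and 57.1 in Cdc14ab KO and 19.2 and 22.7 in Cdc14b KO. They summed to 512 and 68.4 in Cdc14a KO and 465 and 201 in wild type. The groups did not overlap, but in both Cdc14b-intact genotypes clone 3 was well below clone 1. Xist had 7.87 to 46.2 in Cdc14b-null and 1.63 to 8.69 in Cdc14b-intact libraries. The part of cell state and of sex in the members' differences was not tested.

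**Figure D5:**
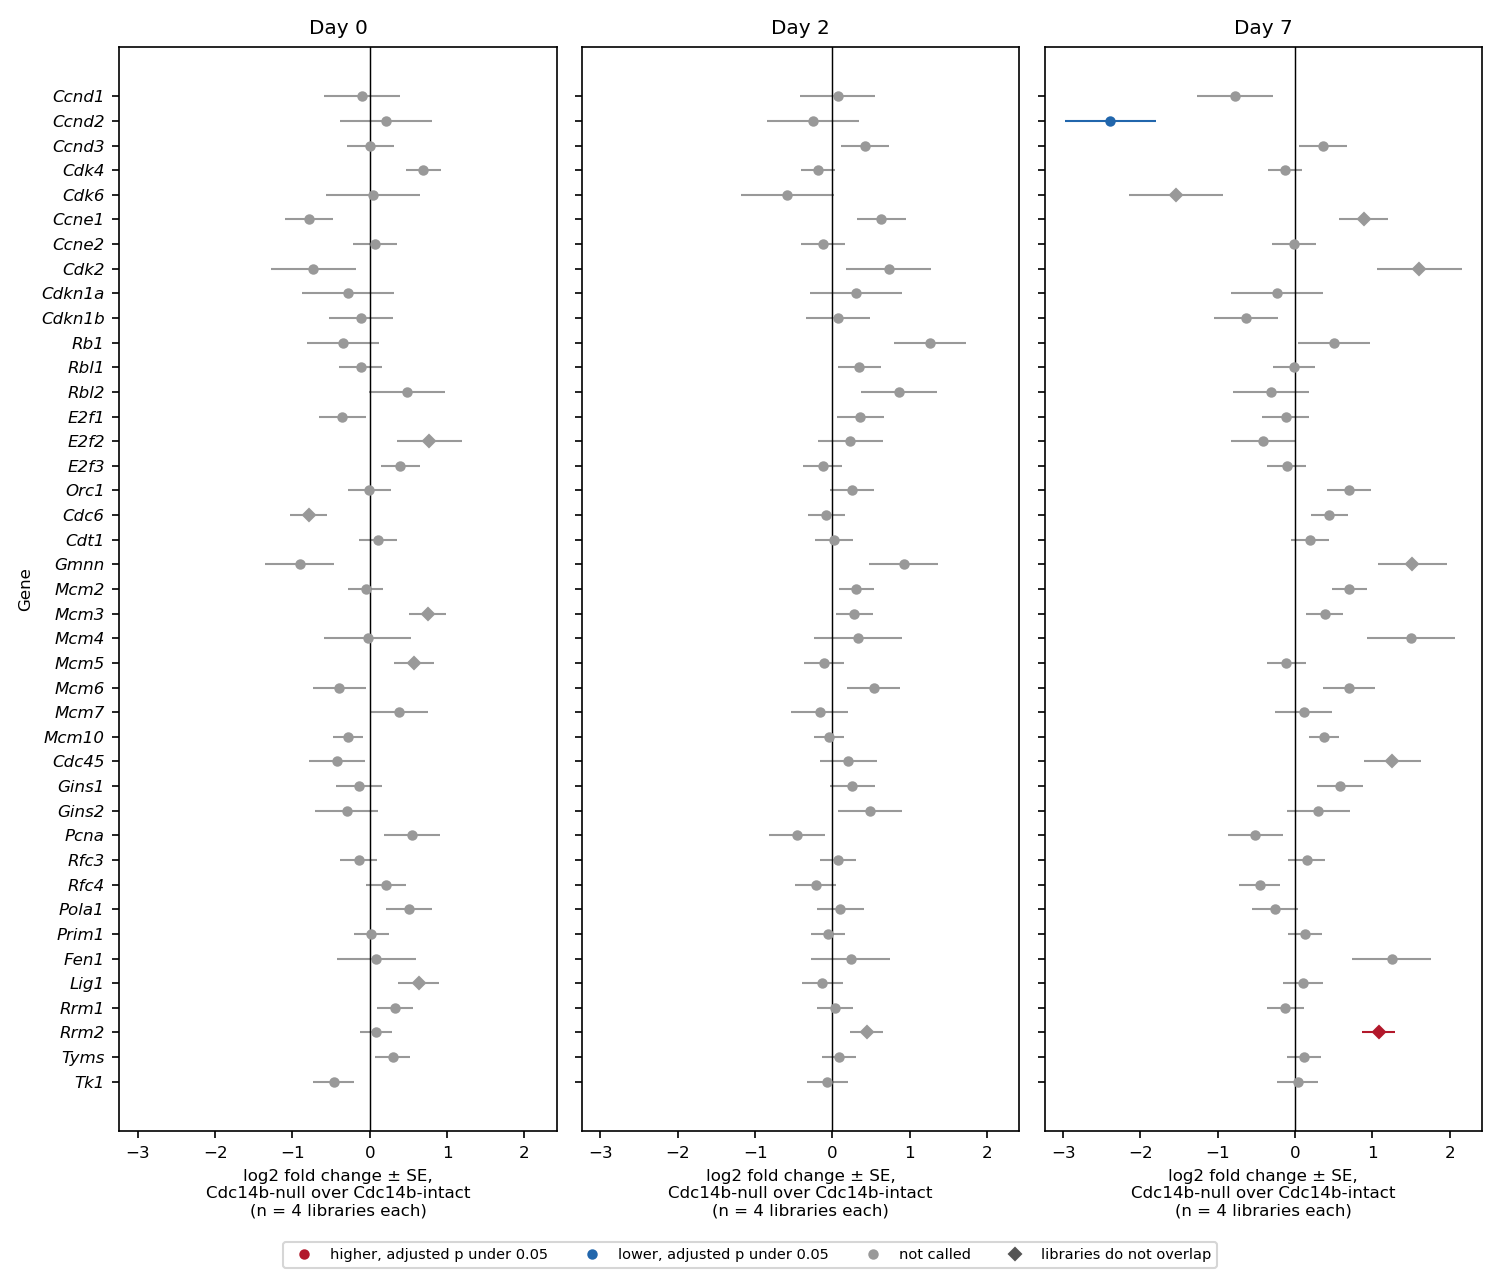
Log2 fold change ± SE (x axis) of Cdc14b-null over Cdc14b-intact libraries for 41 genes (y axis) at days 0, 2 and 7, 4 libraries each, with called genes coloured and diamonds where the libraries of the 2 groups do not overlap. Rrm2 (1.08) and Ccnd2 (-2.39) are coloured at day 7, and none is at days 0 and 2.

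At day 0 no member was called, against 0.0124% of all genes (2 genes, and 1909 at an unadjusted p under 0.05), and edgeR and DESeq2 on 22 libraries also called no member. E2f2, Mcm3, Mcm5 and Lig1 were higher in every Cdc14b-null than every Cdc14b-intact library (9.76%, against 3.1% of all genes), and Cdc6 was lower (against 3.67%). Mcm3 had 4646 and 3787 in Cdc14ab KO and 4808 and 4787 in Cdc14b KO, against 2882 and 2171 in Cdc14a KO and 3539.7 and 2297 in wild type. Cdc6 had 481 and 625 in Cdc14ab KO and 815 and 664 in Cdc14b KO, against 1173 and 905 in Cdc14a KO and 1077 and 1281 in wild type. A fit without Cdc14ab KO day 0 clone 3 has clone 1, rich in Gm42418, as the only Cdc14ab KO library of that day. In clone 1 Cdk4 had 4313 and Mcm7 9536 normalized counts, above clone 3 (2122 and 1639.8), and Ccne1 had 338, below clone 3 (1002). Calls of Cdk4 and Mcm7 as higher and of Ccne1 as lower in that fit are therefore not read as a result. At day 2 no member was called either, against 0% of all genes (1150 at an unadjusted p under 0.05), and edgeR and DESeq2 called no member. Rrm2 had 751 and 698 in Cdc14ab KO and 876 and 909.6 in Cdc14b KO, against 641 and 556 in Cdc14a KO and 677 and 505 in wild type, without overlap between the groups (2.44% of members, against 2.08% of all genes), and no member was lower without overlap (against 3.99%).

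The difference between the Cdc14b-null and Cdc14b-intact changes from day 0 to day 7 was tested directly. Ccne1 and Gmnn passed, both in the direction of a higher change without Cdc14b (4.88% of members, against 3.26% of all genes, 1.58% higher and 1.68% lower). The log2 change of Gmnn was 1.78 and 0.54 (Cdc14ab KO) and 0.81 and 0.90 (Cdc14b KO) in clones 1 and 3, against -2.02 and -1.03 (Cdc14a KO) and -0.95 and -1.66 (wild type). All 4 Cdc14b-null changes were positive and all 4 Cdc14b-intact changes negative (difference 2.42 ± 0.63, adjusted p = 0.044, limma). The log2 change of Ccne1 was 1.33 and -0.30 (Cdc14ab KO) and -0.69 and -0.28 (Cdc14b KO) in clones 1 and 3, against -1.47 and -1.63 (Cdc14a KO) and -0.99 and -2.53 (wild type). The Cdc14b-null changes lay above the others (difference 1.67 ± 0.44, adjusted p = 0.046, limma), and Cdc14ab KO clone 1 was the line with the low day 0 level. A fit without Cdc14ab KO day 0 clone 3 rests on clone 1, rich in Gm42418, for that group. Calls of Ccne1 and Gmnn in that fit are therefore not read as a result. Ccne1 was called in 2 of 16 fits that left out a library (Cdc14ab KO day 0 clone 3 or wild-type day 7 clone 1) and Gmnn in 3 (Cdc14ab KO day 0 clone 3, Cdc14b KO day 0 clone 1 or Cdc14b KO day 7 clone 3), neither without the Gm42418-rich libraries, and edgeR on 22 libraries called no member. DESeq2 on 22 libraries called Gmnn higher and Ccnd2 lower. With each line as a block, 4 members were called, Ccne1, Cdc6 and Gmnn higher and Ccnd2 lower. That fit called 780 of 16158 genes (403 higher and 377 lower). In 9 members the line changes were higher in every Cdc14b-null line (Ccne1, Cdk2, Cdc6, Gmnn, Mcm2, Mcm6, Mcm10, Cdc45 and Rrm2, 9 of 41, against 8.13% of all genes) and in Cdk6 and Rfc4 they were lower (4.88%, against 6.91%). Of the other pathway genes, Cdkn2a, whose products include an inhibitor of Cdk4 and Cdk6, was higher in Cdc14b-null lines at day 7 (log2 1.51 ± 0.39, adjusted p = 0.035, limma). Cdkn2a was also higher in the difference of changes, with Pola2, a polymerase alpha subunit.

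Loss of Cdc14a alone, and its loss on top of Cdc14b, called no member at day 7, against 0% of all genes in both comparisons (70 and 774 genes at an unadjusted p under 0.05). edgeR and DESeq2 on 22 libraries called no member in either. In Cdc14a KO against wild type, 10 members were lower and 1 higher without overlap (24.4% and 2.44%, against 14% and 13.1% of all genes), with 2 clones a group. In Cdc14ab KO against Cdc14b KO, 33 of 41 members had a negative difference, with a median of -0.36 against 0.01 over all genes. There 14 members were lower without overlap (34.1%, against 13% of all genes) and Ccnd3 was higher (2.44%, against 15%). Trophectoderm markers summed to 11646 and 45707 in Cdc14ab KO and 10358 and 6754 in Cdc14b KO clones, and neural progenitor markers to 2167 and 853 in Cdc14ab KO and 2022 and 2652 in Cdc14b KO clones. Without Cdc14ab KO clone 3 the median over members was -0.14, with 32 of 41 negative and no member called. The part of these markers was not tested. Rrm2 had 686 and 479 in Cdc14ab KO and 808 and 1039.7 in Cdc14b KO clones, and Mcm2 had 770.2 and 529.6 in Cdc14ab KO and 1085 and 899.8 in Cdc14b KO clones. Mcm2 and the other 10 licensing genes all had a negative difference, though none passed the test.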

How the data were processed

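RNA from 24 mouse embryonic stem cell libraries was sequenced from transcript 3′ ends with a directional kit. The deposited table holds signal values, which per the submitters' processing notes come from HTSeq 0.6.1 read counts normalized with DESeq2, after FastQC 0.11.7 and alignment with TopHat2 2.0.10, Bowtie 1.0.0 and SAMtools 0.1.19 on GRCm38. The annotation is not given in the sources used here. Per the labels' protocols reads were counted on the sense strand. Within each library the values were whole multiples of 1 step (tolerance 0.001), so read numbers and depth could be recovered.

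Values were tested as log2(normalized count + 1) for the 16158 genes that reached 10 normalized counts in 2 or more libraries. limma 3.58.1 in R 4.3.3 was fitted to 12 group means over 24 libraries (12 residual degrees of freedom), with trended and robust variance and Benjamini-Hochberg adjustment over all genes, called at 0.05. Over days the same lines are compared, so a fit with the line as a block was also run. edgeR 4.0.16 and DESeq2 1.42.0 were run on the recovered reads of 22 libraries. Wild-type day 0 clone 3 and Cdc14b KO day 2 clone 1 were left out of these 2 tests, because their step was too close to 1 for the recovery to be accepted. limma on the same 22 libraries was added after seeing the data. TMM factors were computed on the deposited values, not on recovered reads as planned, so that all 24 libraries could be used. Other alternatives were pseudocounts of 0.25 and 5, no filter or a filter of 50, only the groups compared, each library left out and no Gm42418-rich library. The fitting was tested on simulated data. Figures were drawn with matplotlib 3.10.9. All members could be named, with the full statistics for at most 3 called members a role plus the cyclins and Cdk inhibitors, and at most 4 other pathway genes a comparison. Members and lists were chosen with earlier results of these data known.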

Additional observations from a re-analysis of the deposited data

Results flagged for a closer look

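In 13 of 246 sets of 4 libraries of 1 Cdc14b status and day, 1 library lay far from the other 3 by Dixon's criterion, which chance alone meets in about 1 of 20 sets. Of the 13, 6 were Cdc14ab KO day 0 clone 1, a library also rich in Gm42418. There Cdk4 had 4313 normalized counts and E2f3 had 619, above the other Cdc14b-null libraries of that day. Ccne1 had 338, Orc1 had 189, Gins2 had 171 and Tk1 had 118 in the same library, below the others. In Cdc14a KO day 0 clone 1, Mcm2 had 1716 and Mcm7 had 3829.6, above the other Cdc14b-intact libraries, and Cdkn1b had 73.8, below them. Orc1 had 213 in wild-type day 0 clone 3, and Mcm3 had 3787 in Cdc14ab KO day 0 clone 3, both below the rest. E2f2 had 33.3 in Cdc14ab KO day 2 clone 1 and Cdc6 had 688 in Cdc14ab KO day 7 clone 3, also below the rest. The change from day 0 to day 7 differed between Cdc14b-null and Cdc14b-intact lines for Ccne1, by log2 1.67, and for Gmnn, by log2 2.42.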

How the results depend on the processing

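Of 369 member results, 133 changed sign under at least 1 setting, none of them among the 77 with an adjusted p under 0.2. Of the values of those 77 under these settings, 1724 kept their direction and side of the threshold, 212 lost a call and 55 gained one. Of the members called at day 7 against day 0, 20 in all, leaving out 1 library gave 18 to 23 and leaving out the Gm42418-rich libraries gave 14. At day 2 against day 0 (4 members), edgeR gave 1, DESeq2 gave 2, limma on the 22 libraries gave 1 and the fit without Gm42418-rich libraries gave 0, with 0 to 8 when 1 library was left out. At day 7 against day 2 (11 members), limma on 22 libraries gave 6, and leaving out 1 library gave 4 to 11. For Cdc14b-null against Cdc14b-intact lines (2 members at day 7, 0 at day 0), DESeq2 gave 6 at day 7, and leaving out 1 library gave 0 to 4 at day 7 and 0 to 3 at day 0. For the difference between their changes (2 members), edgeR, limma on 22 libraries and the fit without Gm42418-rich libraries gave 0, with 0 to 6 when 1 library was left out. The cause was not tested, and a lone clone in such a fit is assumed to vary like the other groups. With the replicate block the day comparisons had 20 members at day 7 and 3 at day 2 against day 0, and 10 for day 7 against day 2, and the difference of changes had 4. Between genotypes the labels give clones only a shared number. Deviations of same-numbered clones correlated at 0.119 to 0.512 at day 0 and 0.231 to 0.541 at day 7, but at -0.134 to 0.628 at day 2. The block gave 3 members at day 7 (Mcm2 added) and 0 in the other genotype comparisons. For all genes, the Cdc14b contrast at day 7 had 606 calls, against 1287 by DESeq2, 345 with only the groups compared, 920 with the block and 5 to 773 with 1 library left out (5 without wild-type day 7 clone 3). The difference of changes had 527 calls, against 0 by edgeR and by limma on 22 libraries (2773 and 2788 at an unadjusted p under 0.05), 0 without the Gm42418-rich libraries, 651 by DESeq2 and 0 to 1870 with 1 library left out (most when Cdc14ab KO clone 3 of day 0 was dropped, 0 when wild-type clone 3 of day 7 or Cdc14b KO clone 3 of day 0 was). With 2 clones a group, small differences could not be detected.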

Other observations

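Some members differed by clone number across genotypes, a pattern noticed in these values and not tested. Cdk6 at day 2 had 119, 119.6, 207 and 258 normalized counts in clone 1 and 676, 750.0, 834 and 828 in clone 3 of Cdc14ab KO, Cdc14b KO, Cdc14a KO and wild type. Every clone 3 value was above every clone 1 value. The wild-type clones stood at opposite ends at day 2 for several replication genes. Gmnn, the Cdt1 inhibitor, had 844 in wild-type clone 1 and 122 in clone 3, and Fen1, the flap nuclease, had 319 in clone 1 and 46.4 in clone 3.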
